A study of Mus musculus with 6 samples.

Results

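The genes described here are the 54 DNA replication and S phase genes of a list fixed by symbol, and all 54 were found among the 11609 mRNA genes of the deposited tables. N2a cells, a mouse neuroblastoma line, had been made to differentiate with 10 µM retinoic acid in medium with 2% serum, renewed daily over 96 h. The 3 DMSO libraries came from such cells given the solvent, and the 3 RSL3 libraries from such cells given 5 µM RSL3 for 24 h. RSL3 blocks GPX4, the enzyme that reduces lipid peroxides, and so induces ferroptosis, an iron-dependent form of cell death. The comparison asks what happens to the transcripts of the replication machinery under that treatment. Both groups carry the retinoic acid, no undifferentiated N2a library was analysed here, and all libraries come from 1 tumour line. No source used here says that libraries of a group were separate cultures, so the p-values measure a difference against the spread between libraries, which may be technical.

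Before a cell copies its DNA, the origin recognition complex, CDC6 and CDT1 load the MCM2-7 helicase onto origins. Cyclin E with CDK2 and the E2F transcription factors open S phase, CDC45 and GINS switch the helicase on, and primase and the polymerases synthesise new strands behind it. Ribonucleotide reductase, thymidylate synthase and thymidine kinase supply deoxynucleotides, and UHRF1, DNMT1 and the CAF-1 complex copy DNA methylation and nucleosomes. Most of these genes are E2F targets and fall silent in neurons that have left the cell cycle, whereas N2a cultures treated with retinoic acid can keep dividing cells. In a bulk library, fewer cells in S phase and less of these RNAs per cell cannot be told apart.

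The promoters of the members with the smallest p-values are shown with the letters of E2F sites, and E2F binding was not measured here. Promoter windows of RefSeq, build GRCm38.p6, were found for 46 of the 54 genes, and the 250 bases before the first listed start site of each gene were searched on both strands. The E2F letters searched were TTCCCGC or TTCGCGC or TTGCCGC or TTGGCGC. They stand in capitals below and may overlap. The sequences run 5′ to 3′ on the gene's strand and end at the start site or at the first annotated exon of any gene, so the stretches of Uhrf1 and Tk1 stop short of the RefSeq start site. They lie at chr8:75109259-75109508 (plus strand) for Mcm5, chr17:56303087-56303320 (plus strand) for Uhrf1 and chr11:117826093-117826264 (minus strand) for Tk1.
Mcm5: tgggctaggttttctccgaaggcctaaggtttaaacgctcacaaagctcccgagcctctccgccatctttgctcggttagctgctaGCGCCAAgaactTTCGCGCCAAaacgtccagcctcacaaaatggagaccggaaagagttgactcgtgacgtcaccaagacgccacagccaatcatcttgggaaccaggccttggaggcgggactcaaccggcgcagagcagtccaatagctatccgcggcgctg
Uhrf1: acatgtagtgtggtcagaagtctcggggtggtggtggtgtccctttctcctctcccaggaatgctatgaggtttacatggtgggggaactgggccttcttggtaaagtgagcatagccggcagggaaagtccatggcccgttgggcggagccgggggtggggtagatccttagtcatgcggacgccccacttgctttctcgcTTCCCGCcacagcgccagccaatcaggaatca
Tk1: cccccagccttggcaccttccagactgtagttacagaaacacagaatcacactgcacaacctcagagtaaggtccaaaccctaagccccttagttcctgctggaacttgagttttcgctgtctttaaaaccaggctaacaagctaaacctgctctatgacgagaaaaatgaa
The Mcm5 stretch held 3 matches, 2 of them overlapping, the Uhrf1 stretch 1 and the Tk1 window 0. Of the 46 windows 18 held the E2F letters (39.1%), against 15.2% of the windows of 8270 tested genes. The letters stood in 4 of the 10 windows of genes that fell and in 14 of the 36 windows of genes that did not pass, so the share was alike in both (40.0% and 38.9%). The letters CCAAT stood in 56.5% of the members' windows and 37.5% of all. The CHR letters TTTGAA or TTCGAA, an element of late cell cycle promoters, stood in 15.2% and 11.9%. A match is only a run of letters, and a window without one says nothing of the factor.

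With RSL3, 10 of the 54 genes fell and 0 rose at an adjusted p under 0.05, and the falls were of 1.21 to 1.46-fold in mean FPKM. Over all 10590 tested mRNA genes, 3.92% fell and 2.46% rose, against 18.5% and 0% of the replication genes. In genes, these were 415 lower and 261 higher, and 329 and 350 after quantile normalization. Those that fell were the helicase genes Mcm5, Mcm10 and Cdc45, the clamp loader gene Rfc5, the ligase gene Lig1, the nucleotide genes Rrm1, Rrm2 and Tk1, and the methylation genes Uhrf1 and Dnmt1. An unadjusted p under 0.05 in limma was reached by 18 members (24.1% of all tested genes), 17 lower and Chaf1b higher. Values are in FPKM, which is scaled to transcript length and library size, and fold changes are differences of mean log2(FPKM + 1) from limma with their standard errors (SE). The median log2 fold change of the 54 members was -0.16, and that of all tested genes -0.031; 44 of the 54 stood below 0, against 56.4% of all tested genes. No member changed by 2-fold on that scale, and 17 differed by less than 0.1 in either direction. Every RSL3 library lay below every DMSO library for 23 members (42.6%; 19.6% of all tested genes), and above them for Chaf1b (1 of 54; 13.4% of all tested genes). The plot of fold changes by function shows all 54.

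**Figure D1:**
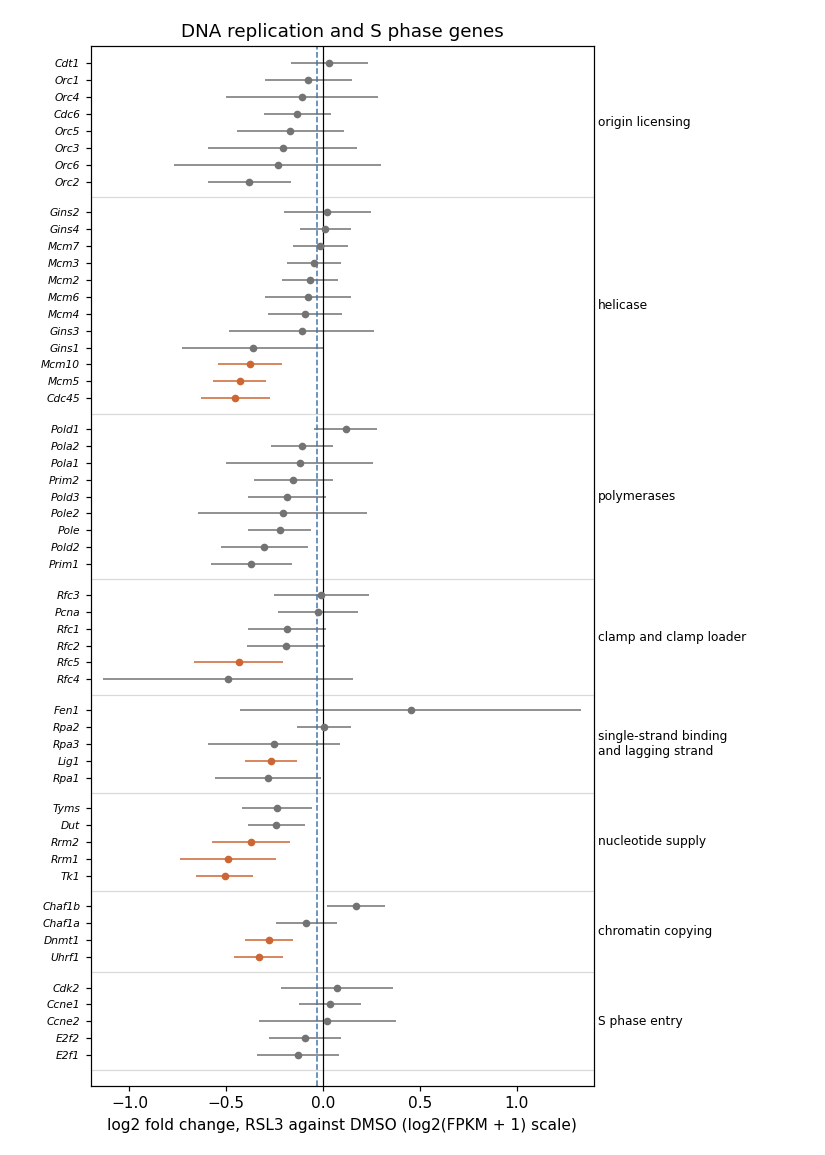
Log2 fold change of each of the 54 replication genes, RSL3 against DMSO, grouped by function; points are limma estimates, bars their 95% confidence intervals, orange the 10 genes past the threshold, and the dashed line the median of all tested genes at -0.031. The orange genes lie between -0.51 and -0.27, and the S phase entry genes lie around 0.

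The calls changed when 1 library was left out, and nearly all were lost whichever DMSO library that was. Without DMSO replicates 1, 2 and 3, 0, 0 and 1 members fell, the one being Tk1. Without RSL3 replicates 1, 2 and 3 the counts were 12, 11 and 2, and the 2 were Mcm5 and Tk1. All 10 genes stayed lower with RSL3 in each of these 6 fits. Their log2 fold changes ranged least for Dnmt1, from -0.29 to -0.27, and most for Rrm1, from -0.57 to -0.37. The number of all genes called also dropped without a DMSO library, from 676 to between 137 and 187. RSL3 replicate 1 stood apart: the median of the 54 members lay 0.27 below the DMSO mean there, and 0.098 and 0.12 below it in RSL3 replicates 2 and 3. Over all tested genes the same medians were -0.098, 0.0055 and 0.0099. It held the lowest RSL3 value of 34 members, and its difference from the other RSL3 libraries correlated with transcript GC content across genes at 0.65. The like correlations were -0.61 for RSL3 replicate 2 and -0.23 for RSL3 replicate 3. Once trends with length and GC content were taken out, the 3 medians were -0.11, -0.10 and -0.093, and 15 members fell. Calls over all genes also rose under that setting, from 676 to the number given in the last section. The rise was therefore not confined to the members.

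Other features of the libraries moved with the treatment, and their part in these results was not tested. Summed mRNA values lay between 220605 and 225295 FPKM with DMSO and between 200135 and 213765 FPKM with RSL3. All 15 liver markers were listed, and 12 of the 13 tested fell (3.92% of all tested genes). The other, Rbp4, was higher in every RSL3 library without a call, with means of 10.4 FPKM with DMSO and 12.8 FPKM with RSL3. Of the 12 that fell, Fga, Fgb, Fgg and Serpina1a reached 1 FPKM with DMSO only. The filter thus admitted these genes through the group where they were high, which favours a fall in the count. The sum of the 15 lay between 73.8 and 96.8 FPKM with DMSO and between 27.6 and 40.0 FPKM with RSL3. Of 10 neuronal markers 7 were listed and Dcx, Nefl and Nefm were not. Gap43 fell, 6 of the 7 stood below 0 (56.4% of all tested genes), and the median log2 fold change was -0.23. Their sums were 390 to 407 FPKM with DMSO and 401 to 429 FPKM with RSL3. Uchl1, the one marker above 0, gave the largest share, with means of 189 and 222 FPKM. The defining neuronal tubulin gene Tubb3 stood at 116 and 115 FPKM. Of 30 markers of fibroblasts, macrophages, glia and endothelium 6 were listed, and Ptprc, Gfap, Col1a2, Col3a1, Dcn and Cdh5 were not. The 3 fibroblast markers listed, Col1a1, Pdgfra and Pdgfrb, summed to between 6.83 and 10.8 FPKM with DMSO and between 5.03 and 5.42 FPKM with RSL3. Pdgfrb was lower in every RSL3 library, while Col1a1 and Pdgfra overlapped between groups. The mean of Pdgfra was higher with RSL3 (0.587 FPKM with DMSO and 0.732 FPKM with RSL3). The macrophage marker Cd68 (means 0.366 and 0.600 FPKM) and the endothelial marker Pecam1 (0.606 and 0.796 FPKM) were higher in every RSL3 library. This held for 13.4% of all tested genes, and Cd68 and Pecam1 were not among the tested genes. No listed gene had both group means as low as the DMSO mean of Cd68. Cd68 may thus be listed only through its RSL3 values, which would favour a rise. The glial marker Mbp overlapped between groups (1.11 and 1.17 FPKM). The 2 lncRNAs of the ribosomal RNA locus reached 20971 ± 2098 and 29856 ± 3245 FPKM (SD, n = 3).

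Origin licensing genes had a median DMSO mean of 8.97 FPKM, against 6.44 FPKM for all mRNA genes. In limma 0 of 8 passed, while 3.92% of all tested genes fell and 2.46% rose. An unadjusted p under 0.05 was reached by 1 of the 8 (24.1% of all tested genes). Orc2, a core subunit of the origin recognition complex, came closest. On the other strand Nif3l1 overlaps 19046 of its 42339 bases, so their reads may be shared. Nif3l1 stood between 3.59 and 4.24 FPKM. For Orc2, DMSO replicates 1 to 3 read 18.5, 20.0 and 17.9 FPKM, and RSL3 replicates 1 to 3 read 12.6, 15.5 and 14.7 FPKM. Its groups did not overlap, with a log2 fold change of -0.38 ± 0.092 SE, adjusted p = 0.0558, and it passed after quantile normalization (adjusted p = 0.0476), with median-ratio size factors (0.0379), with trends removed (0.0119), under the stricter filter (0.0472) and without RSL3 replicate 1 or 2. Orc6 measured 18.8, 19.6 and 17.9 FPKM with DMSO and 10.2, 20.2 and 18.9 FPKM with RSL3. Orc6 was low in RSL3 replicate 1 alone (log2 fold change -0.23 ± 0.23 SE, adjusted p = 0.586). Levels of Cdc6 were 11.7, 12.2 and 13.2 FPKM in DMSO replicates 1 to 3 and 11.3, 11.5 and 10.7 FPKM in RSL3 replicates 1 to 3. Cdc6, the loader of the helicase, lay lower in every RSL3 library by a small margin (-0.13 ± 0.075 SE, adjusted p = 0.329). Cdt1 stood at 40.7, 43.2 and 42.5 FPKM in the DMSO libraries and at 45.7, 38.0 and 46.0 FPKM in the RSL3 libraries. Cdt1, its partner, was the only licensing gene with a fold change above 0 (0.032 ± 0.085 SE, adjusted p = 0.857), in groups that overlapped. Its span lies inside that of the gene Gm20388 on the same strand, so their reads may be shared. Orc1, Orc3, Orc4 and Orc5 had DMSO means between 3.38 and 5.58 FPKM and log2 fold changes between -0.21 and -0.075, and their groups overlapped.

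The 6 genes of the MCM2-7 ring, which unwinds DNA, were expressed at like levels per length, from 29.6 FPKM for Mcm4 to 49.6 FPKM for Mcm5 with DMSO. Of these Mcm5 fell. For Mcm5, DMSO replicates 1 to 3 read 49.4, 48.8 and 50.7 FPKM, and RSL3 replicates 1 to 3 read 35.9, 35.5 and 38.4 FPKM. No RSL3 library came near the DMSO range (log2 fold change -0.43 ± 0.059 SE, adjusted p = 0.00922). Mcm2 measured 43.9, 46.6 and 47.0 FPKM with DMSO and 45.8, 42.6 and 42.8 FPKM with RSL3. For Mcm2 the groups overlapped (-0.067 ± 0.061 SE, adjusted p = 0.560). Levels of Mcm7 were 49.1, 50.3 and 47.4 FPKM in DMSO replicates 1 to 3 and 47.7, 46.8 and 50.8 FPKM in RSL3 replicates 1 to 3. Mcm7 overlapped as well (-0.015 ± 0.061 SE, adjusted p = 0.909). Mcm6 stood at 44.1, 49.0 and 43.6 FPKM in the DMSO libraries and at 37.8, 47.4 and 44.7 FPKM in the RSL3 libraries. Mcm6 was low in RSL3 replicate 1 alone (-0.077 ± 0.096 SE, adjusted p = 0.672). Mcm3 and Mcm4 stood at -0.046 ± 0.06 and -0.092 ± 0.08 (adjusted p = 0.690 and 0.545). The 95% confidence intervals of the 5 other subunits ran from -0.30 to 0.15 at their widest, and that of Mcm5 from -0.57 to -0.29. Whether Mcm5 differs from its partners in response was not tested. Mcm5 passed under each of the 9 other settings tried with all 6 libraries, the replicate block among them, and in the fits without a single RSL3 library.

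CDC45 and MCM10 help to turn the loaded ring into a moving fork, and both genes fell. For Cdc45, DMSO replicates 1 to 3 read 45.5, 44.3 and 43.5 FPKM, and RSL3 replicates 1 to 3 read 29.0, 34.2 and 33.6 FPKM. CDC45 is part of the active helicase, and its RNA was lowest in RSL3 replicate 1 (log2 fold change -0.45 ± 0.076 SE, adjusted p = 0.0177). Mcm10 measured 15.5, 14.8 and 15.2 FPKM with DMSO and 10.7, 11.9 and 11.7 FPKM with RSL3. MCM10 helps origins to fire, and no values of its groups overlapped (-0.38 ± 0.07 SE, adjusted p = 0.0242). Both calls were lost with the replicate block (adjusted p = 0.0638 and 0.0957), without any single DMSO library and without RSL3 replicate 3. The GINS complex is the other activator. Levels of Gins1 were 11.0, 9.51 and 9.07 FPKM in DMSO replicates 1 to 3 and 5.61, 8.74 and 8.30 FPKM in RSL3 replicates 1 to 3. Gins1 lay lower in every RSL3 library without passing (-0.36 ± 0.16 SE, adjusted p = 0.213). Gins4 stood at 41.9, 42.6 and 41.0 FPKM in the DMSO libraries and at 43.5, 41.2 and 41.9 FPKM in the RSL3 libraries. Gins4 barely moved (0.011 ± 0.056 SE, adjusted p = 0.931). For Gins2, DMSO replicates 1 to 3 read 6.31, 5.80 and 6.45 FPKM, and RSL3 replicates 1 to 3 read 6.99, 6.34 and 5.60 FPKM. Gins2 had the highest fold change among helicase genes, in overlapping groups (0.021 ± 0.096 SE, adjusted p = 0.924). On the other strand its span is covered by Gm20388 and, over 2758 of 10672 bases, by Gse1, which stood between 56.4 and 79.2 FPKM, so their reads may be shared. Gins3 stood at -0.11 ± 0.16 (adjusted p = 0.724). With DMSO, Gins4 was 9.34 times as abundant per length as Gins3. The plot of subunit levels shows these values by library.

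**Figure D2:**
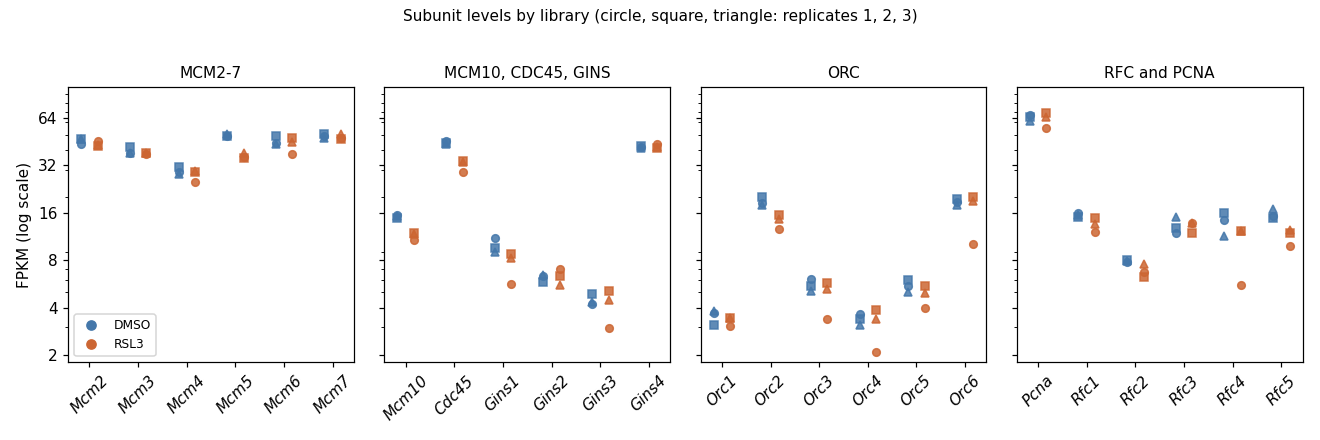
FPKM of helicase, origin recognition and clamp loader genes in each library on a log axis; blue marks DMSO, orange RSL3, and the marker shape the replicate. Mcm5, Cdc45, Mcm10 and Rfc5 lie lower in all RSL3 libraries, while the other MCM2-7 genes overlap between groups.

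None of the 9 polymerase and primase genes passed in limma (3.92% of all tested genes fell and 2.46% rose). Of the 9, 3 had an unadjusted p under 0.05 in limma (24.1% of all tested genes). Below 0 stood 8 (56.4% of all tested genes), and 5 lay lower in every RSL3 library (19.6% of all tested genes). Prim1, the catalytic primase subunit, was nearest. Prim1 measured 27.4, 27.8 and 27.1 FPKM with DMSO and 19.1, 23.9 and 20.2 FPKM with RSL3. All RSL3 values were lower (log2 fold change -0.37 ± 0.089 SE, adjusted p = 0.0543), and it passed under the stricter filter (adjusted p = 0.0463), with trends removed (0.0315) and without RSL3 replicate 2 (0.0183). Levels of Pold2 were 32.1, 28.3 and 32.0 FPKM in DMSO replicates 1 to 3 and 27.9, 22.4 and 24.2 FPKM in RSL3 replicates 1 to 3. Pold2, an accessory subunit of the lagging-strand polymerase delta, also lay lower throughout (-0.30 ± 0.096 SE, adjusted p = 0.108) and passed with trends removed (0.0200) and without RSL3 replicate 1 (0.0245). Pole stood at 13.0, 13.7 and 13.0 FPKM in the DMSO libraries and at 10.6, 11.4 and 11.6 FPKM in the RSL3 libraries. Pole, the catalytic subunit of the leading-strand polymerase epsilon, showed the same order without passing (-0.22 ± 0.069 SE, adjusted p = 0.103). For Pold1, DMSO replicates 1 to 3 read 20.7, 20.8 and 19.8 FPKM, and RSL3 replicates 1 to 3 read 22.6, 20.7 and 23.3 FPKM. Pold1, the catalytic subunit of polymerase delta, was the one polymerase gene above 0 (0.12 ± 0.069 SE, adjusted p = 0.349), and its groups overlapped at 20.7 FPKM. Pola1, Pola2, Prim2, Pold3 and Pole2 had log2 fold changes between -0.21 and -0.11, and of these Prim2 and Pold3 did not overlap between groups.

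PCNA is the ring that holds polymerases on DNA, and RFC1-5 form the loader that closes it around the strand. Pcna was the most abundant of these 6 genes. Pcna measured 66.2, 65.1 and 60.8 FPKM with DMSO and 55.5, 68.7 and 65.0 FPKM with RSL3. Its groups overlapped, and only RSL3 replicate 1 was low (log2 fold change -0.026 ± 0.088 SE, adjusted p = 0.891; 95% confidence interval -0.23 to 0.18). Rfc5 fell. Levels of Rfc5 were 15.3, 14.9 and 16.9 FPKM in DMSO replicates 1 to 3 and 9.90, 11.9 and 12.3 FPKM in RSL3 replicates 1 to 3. Every RSL3 value was lower, that of replicate 1 most (-0.44 ± 0.098 SE, adjusted p = 0.0466). The call was lost after quantile normalization (adjusted p = 0.0516), in the untrended fit (0.0540), under the replicate block (0.0819) and in the 5 fits that kept RSL3 replicate 1 and left out another library. Rfc4 stood at 14.3, 16.1 and 11.4 FPKM in the DMSO libraries and at 5.60, 12.2 and 12.3 FPKM in the RSL3 libraries. Rfc4 had the lowest fold change of the 6 and the widest spread, set by RSL3 replicate 1 (-0.49 ± 0.28 SE, adjusted p = 0.326). Rfc1 and Rfc2 lay lower in every RSL3 library without passing (-0.19 each, adjusted p = 0.234 and 0.224), and Rfc3 stood at -0.010.

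Lig1, the ligase that seals lagging-strand fragments, fell. For Lig1, DMSO replicates 1 to 3 read 34.0, 33.5 and 34.1 FPKM, and RSL3 replicates 1 to 3 read 28.6, 26.9 and 28.2 FPKM. The 3 DMSO values were close to each other and the RSL3 values all lower (log2 fold change -0.27 ± 0.057 SE, adjusted p = 0.0395). Lig1 lost its call after quantile normalization (adjusted p = 0.119), with median-ratio size factors (0.0965), in the untrended fit (0.0634), under the replicate block (0.123), and when any library but RSL3 replicate 1 was left out. Fen1 measured 10.8, 7.62 and 11.4 FPKM with DMSO and 10.0, 9.31 and 27.4 FPKM with RSL3. Fen1, the flap nuclease that prepares ends for the ligase, had 1 high value, in RSL3 replicate 3, and no call (0.45 ± 0.38 SE, adjusted p = 0.511). Its span of 5038 bases overlaps the antisense RNA gene Gm10143 over 3253 bases and Tmem258 over 156 bases, and no source here says whether the counting used strand. Tmem258 stood at 14.1 FPKM in that library and between 12.3 and 17.3 FPKM in the others. RPA coats the exposed single strand. Levels of Rpa1 were 23.2, 25.2 and 23.6 FPKM in DMSO replicates 1 to 3 and 20.0, 16.3 and 22.8 FPKM in RSL3 replicates 1 to 3. Rpa1 lay lower in all RSL3 libraries without passing (-0.28 ± 0.12 SE, adjusted p = 0.190). Rpa2 stood at 27.8, 29.5 and 29.5 FPKM in the DMSO libraries and at 28.7, 29.4 and 28.9 FPKM in the RSL3 libraries. Rpa2 did not separate the groups (0.0049 ± 0.058 SE, adjusted p = 0.974). Rpa3 stood at -0.25 ± 0.15 (adjusted p = 0.338), low in RSL3 replicate 1 with 25.6 FPKM.

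Nucleotide supply genes had the lowest median of the 8 functions, at -0.37. All 5 lay lower in every RSL3 library (19.6% of all tested genes), and 3 of them fell (3.92% of all tested genes). Tk1, which salvages thymidine, had the smallest p of all 54 genes. For Tk1, DMSO replicates 1 to 3 read 17.5, 17.0 and 16.4 FPKM, and RSL3 replicates 1 to 3 read 11.5, 11.7 and 11.7 FPKM. The RSL3 values lay close together (11.6 ± 0.10 FPKM, SD, n = 3), and the mean was 31.4% lower (log2 fold change -0.51 ± 0.063 SE, adjusted p = 0.00695). Tk1 passed under all 9 other settings with 6 libraries and, with 1 library left out, in 4 fits of 6, the exceptions being those without DMSO replicate 1 or 2. The span of Gm20708 on the other strand covers Tk1, and that gene stood between 1.88 and 2.83 FPKM in the 6 libraries. Ribonucleotide reductase makes deoxynucleotides from ribonucleotides and is built of a large subunit, RRM1, and an S phase subunit, RRM2. Rrm1 measured 38.9, 39.7 and 37.0 FPKM with DMSO and 22.9, 30.2 and 28.8 FPKM with RSL3. Rrm1 was lowest in RSL3 replicate 1 (-0.49 ± 0.11 SE, adjusted p = 0.0401). Levels of Rrm2 were 40.5, 42.7 and 40.3 FPKM in DMSO replicates 1 to 3 and 28.0, 34.4 and 32.6 FPKM in RSL3 replicates 1 to 3. Rrm2 followed the same order of libraries within RSL3 (-0.37 ± 0.085 SE, adjusted p = 0.0480). Per length both were about equally abundant with DMSO, at 38.5 and 41.1 FPKM. Both calls were lost after quantile normalization (adjusted p = 0.0557 and 0.0792), in the untrended fit (0.0520 and 0.0647), under the replicate block (0.0744 and 0.0855), without any single DMSO library and without RSL3 replicate 3. Rrm2 was also lost with a pseudocount of 0.1 (0.0507).

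Dut stood at 52.1, 51.8 and 52.3 FPKM in the DMSO libraries and at 42.4, 47.1 and 42.4 FPKM in the RSL3 libraries. Dut, which removes dUTP before it can enter DNA, lay lower in every RSL3 library without passing (-0.24 ± 0.063 SE, adjusted p = 0.0689), and passed with trends removed (adjusted p = 0.0429) and without RSL3 replicate 2 (0.0360). For Tyms, DMSO replicates 1 to 3 read 7.87, 7.29 and 7.58 FPKM, and RSL3 replicates 1 to 3 read 5.96, 6.19 and 6.69 FPKM. Tyms, the thymidylate synthase gene, did not pass either (-0.24 ± 0.078 SE, adjusted p = 0.118). In the plot of function medians the nucleotide genes lie lower than 0 in all 3 RSL3 libraries.

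**Figure D3:**
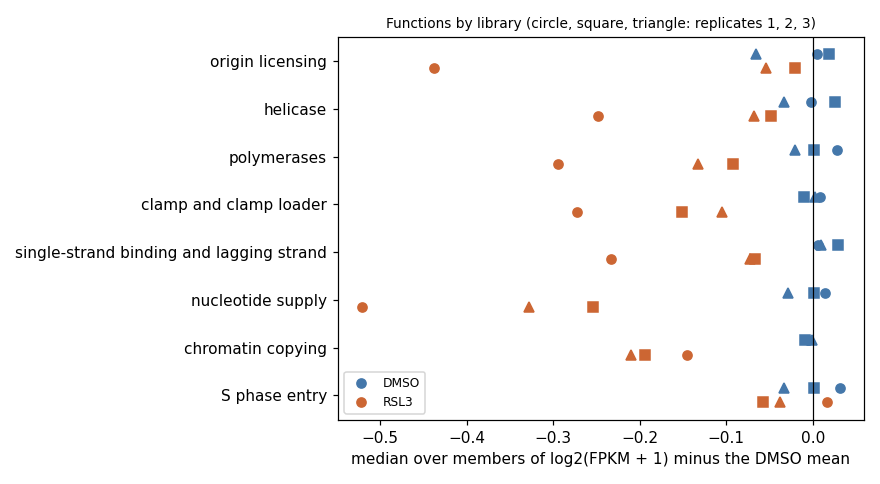
Median over the members of each function of log2(FPKM + 1) minus the DMSO mean, one marker per library (blue DMSO, orange RSL3, shape the replicate). RSL3 replicate 1 is the lowest library for 6 of the 8 functions, chromatin copying and S phase entry being the others, and nucleotide supply lies at -0.52, -0.25 and -0.33 in RSL3 replicates 1, 2 and 3.

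Both genes that copy DNA methylation onto new strands fell. Uhrf1, which recognises half-methylated CpG sites and recruits DNMT1, was the most abundant of the 54 members. Uhrf1 measured 84.7, 89.2 and 85.6 FPKM with DMSO and 67.1, 68.7 and 69.6 FPKM with RSL3. Its groups were well apart (log2 fold change -0.33 ± 0.054 SE, adjusted p = 0.0161), and the difference in mean FPKM was 20.8%. Levels of Dnmt1 were 45.3, 45.9 and 45.5 FPKM in DMSO replicates 1 to 3 and 37.0, 38.0 and 37.0 FPKM in RSL3 replicates 1 to 3. Dnmt1, the maintenance methyltransferase, lay 18.1% lower with a narrow spread in both groups (-0.28 ± 0.053 SE, adjusted p = 0.0259). The calls of these 2 genes did not rest on RSL3 replicate 1: without it their log2 fold changes were -0.32 (adjusted p = 0.0111) and -0.27 (adjusted p = 0.0151), and both passed. The call of Uhrf1 was lost with the replicate block (adjusted p = 0.0740), and that of Dnmt1 with the block (0.106), median-ratio scaling (0.0558), quantile normalization (0.0792) and the untrended fit (0.0520). Both were lost without any single DMSO library and without RSL3 replicate 3.

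CAF-1 deposits histones behind the fork, and its 2 subunit genes in the list did not pass. Chaf1b stood at 15.5, 15.2 and 15.9 FPKM in the DMSO libraries and at 17.1, 18.3 and 17.4 FPKM in the RSL3 libraries. Chaf1b was the one member whose RSL3 libraries all lay above the DMSO libraries (log2 fold change 0.17 ± 0.064 SE, adjusted p = 0.156). For Chaf1a, DMSO replicates 1 to 3 read 27.9, 26.1 and 27.0 FPKM, and RSL3 replicates 1 to 3 read 27.0, 24.5 and 24.6 FPKM. Chaf1a overlapped between groups (-0.086 ± 0.067 SE, adjusted p = 0.484). The plot of the 10 genes past the threshold gives their values by library.

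**Figure D4:**
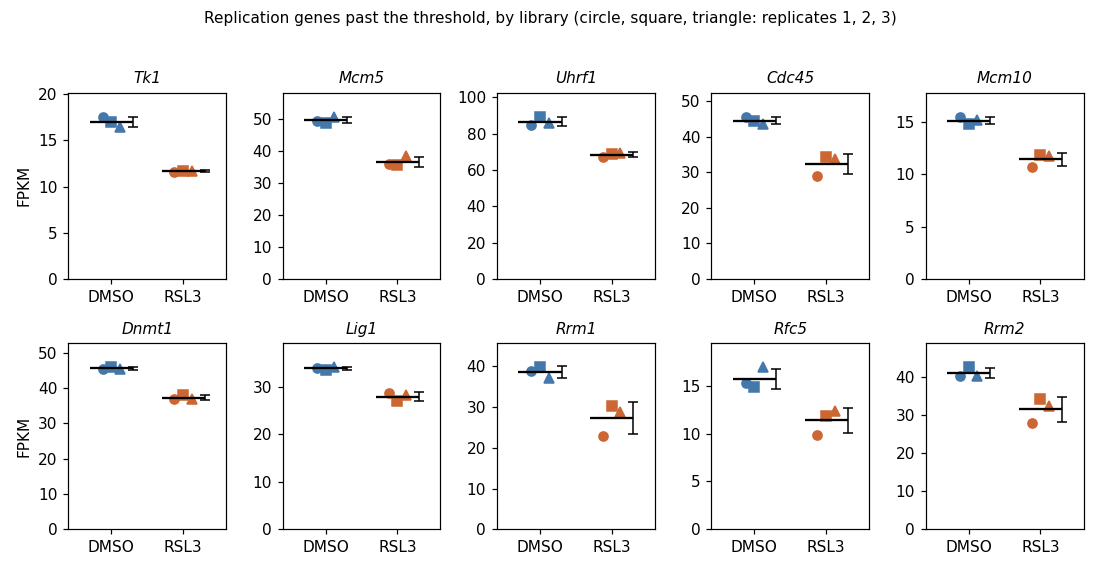
FPKM of the 10 replication genes past the threshold in each library, in order of p; markers show replicates 1, 2 and 3, the line the mean and the bar the SD (n = 3), and each axis starts at 0. The groups do not overlap for any of the 10, and RSL3 replicate 1 is the lowest library for all but Mcm5 and Lig1, by a small margin for Tk1, Uhrf1 and Dnmt1.

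None of the 5 regulators that open S phase passed in limma (3.92% of all tested genes fell and 2.46% rose). Of the 5, 0 had an unadjusted p under 0.05 in limma (24.1% of all tested genes). The groups overlapped for all 5 (7095 of all 10590 tested genes), and their median log2 fold change was 0.022. Ccne1 measured 14.4, 15.0 and 15.6 FPKM with DMSO and 16.2, 15.1 and 15.0 FPKM with RSL3. Ccne1, one of the cyclin E genes, overlapped between groups (log2 fold change 0.038 ± 0.068 SE, adjusted p = 0.782; 95% confidence interval -0.12 to 0.20). Levels of Ccne2 were 12.1, 10.4 and 10.8 FPKM in DMSO replicates 1 to 3 and 9.15, 14.4 and 10.7 FPKM in RSL3 replicates 1 to 3. Ccne2 varied more within RSL3 than between groups (0.022 ± 0.15 SE, adjusted p = 0.948). Cdk2 stood at 6.07, 5.32 and 4.99 FPKM in the DMSO libraries and at 5.32, 5.19 and 6.95 FPKM in the RSL3 libraries. Cdk2, the kinase partner of cyclin E, did not separate the groups (0.072 ± 0.12 SE, adjusted p = 0.769). For E2f1, DMSO replicates 1 to 3 read 21.5, 23.7 and 22.4 FPKM, and RSL3 replicates 1 to 3 read 22.8, 18.3 and 20.6 FPKM. E2f1, an activating E2F factor, stood lower without passing (-0.13 ± 0.09 SE, adjusted p = 0.426), and fell with trends removed (-0.20, adjusted p = 0.0430). E2f2 stood at -0.094 ± 0.08 (adjusted p = 0.516). A p that misses the threshold does not show that these genes were unaffected.

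Other genes of the pathway were counted from lists fixed by symbol. The shares over all tested genes, 3.92% that fell and 2.46% that rose, apply to each count. Of 25 further replication genes 3 fell and 0 rose, with a median log2 fold change of -0.16. Pole3 measured 17.6, 16.4 and 16.4 FPKM with DMSO and 11.6, 13.6 and 12.6 FPKM with RSL3. Pole3, a histone-fold subunit of polymerase epsilon, had all RSL3 values lower (log2 fold change -0.39 ± 0.079 SE, adjusted p = 0.0329). Levels of Recql4 were 20.7, 19.6 and 20.3 FPKM in DMSO replicates 1 to 3 and 16.4, 14.7 and 15.8 FPKM in RSL3 replicates 1 to 3. Recql4, a helicase active at origins, followed (log2 fold change -0.35 ± 0.069 SE, adjusted p = 0.0290). Gmnn stood at 17.4, 16.7 and 15.0 FPKM in the DMSO libraries and at 12.5, 12.4 and 13.0 FPKM in the RSL3 libraries. Gmnn, whose protein geminin blocks relicensing by CDT1, fell as well (log2 fold change -0.34 ± 0.076 SE, adjusted p = 0.0441). Of 15 further nucleotide genes 0 fell and 0 rose in limma (median -0.18), and 5 had an unadjusted p under 0.05 (24.1% of all tested genes). Of 12 further chromatin genes 1 fell and 0 rose (median -0.18). For Ssrp1, DMSO replicates 1 to 3 read 147, 143 and 140 FPKM, and RSL3 replicates 1 to 3 read 115, 123 and 116 FPKM. This was Ssrp1, a subunit of the histone chaperone FACT (log2 fold change -0.28 ± 0.056 SE, adjusted p = 0.0332).

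Among 27 genes that control the step from G1 to S, 24 were listed, 2 fell and 0 rose (median -0.14). In every RSL3 library 5 of the 24 lay lower (19.6% of all tested genes) and 3 lay higher (13.4% of all tested genes). The 3 included Cdkn1a (means 31.1 FPKM with DMSO and 36.0 FPKM with RSL3) and E2f7 (6.94 and 8.02 FPKM), without a call. Ccnd1 measured 59.3, 61.4 and 58.7 FPKM with DMSO and 43.5, 41.9 and 39.0 FPKM with RSL3. Ccnd1 encodes cyclin D1, which with CDK4 or CDK6 lifts the block of E2F by the retinoblastoma protein, and its groups were far apart (log2 fold change -0.52 ± 0.063 SE, adjusted p = 0.00646). Levels of Mycn were 5.98, 5.74 and 5.76 FPKM in DMSO replicates 1 to 3 and 3.45, 3.17 and 3.68 FPKM in RSL3 replicates 1 to 3. Mycn, a transcription factor gene often amplified in neuroblastoma, fell too (log2 fold change -0.62 ± 0.081 SE, adjusted p = 0.00836). For comparison, 30 G2 and mitosis genes gave 18 that fell and 0 that rose, with a median of -0.47, and 29 lay lower in every RSL3 library. Over all tested genes 3.92% fell, 2.46% rose and 19.6% lay lower in every RSL3 library. Aurka stood at 36.0, 36.8 and 36.3 FPKM in the DMSO libraries and at 23.1, 22.9 and 22.6 FPKM in the RSL3 libraries. The mitotic kinase gene Aurka had the smallest p among them (log2 fold change -0.65 ± 0.055 SE, adjusted p = 0.00275). Whether G2 and mitosis genes fell more than replication genes was not tested, and both sets of values come from the same 6 libraries. Of the CHR letters, 34.6% of the G2 and mitosis windows held a match, and of the E2F letters 15.4%.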

How the data were processed

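RNA was sequenced from 3 DMSO and 3 RSL3 libraries, grouped by their titles. The authors deposited FPKM for mRNA and lncRNA. Tools listed, without roles, in the submitters' processing notes are StringTie 1.3.3, HISAT2 and cutadapt, with build GRCm38. The annotation release, low-value filters and strand setting are not given in those sources. The spans of 17 members overlap a protein-coding gene, among them the called Cdc45, Lig1, Rfc5 and Tk1, so reads may be shared. Per the labels' protocols, a poly(A) selection module and a stranded kit were used. FPKM do not show read depth, which is unknown here, so no counting interval is given. The back-splice tables were not used here.

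The contrast of RSL3 and DMSO was fitted with limma 3.58.1 in R 4.3.3, two-sided and with a variance trend, on log2(FPKM + 1) of 10590 genes. These reached 1 FPKM in 3 or more libraries, as all 54 members did. P-values were adjusted by Benjamini-Hochberg over all tested genes, with a threshold of 0.05. The test was checked on simulated data with independent noise in each gene and library. These held no effect shared across a library, so the check does not cover such effects. No set test was run. The members, lists, markers and motifs were chosen with earlier results of these data known. Values per library are given for members past the threshold, for the member of each function with the smallest p and the one moving most against its median, and for preset cyclin, E2F, MCM, Pcna and Rrm2 genes. Orc6, Cdc6, Gins1, Gins4, Pold2, Pole, Rfc4, Rpa1, Rpa2, Dut, Tyms and Chaf1a were added after their values were seen. From each further list the rule takes up to 3 genes per direction that passed, of which the text gives Aurka for G2 and mitosis. Positions and GC content came from GENCODE M21 (GRCm38), and promoters from RefSeq.

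The labels state no pairing, so libraries were not paired in the main fit. Same-numbered libraries deviated from their group means with correlations of -0.15, 0.049 and -0.062, which do not show whether cultures were paired. Alternatives were the pseudocount (0.1, 0.5), the filter (none, or 5 FPKM), median-ratio scaling, quantile normalization, no variance trend, the replicate block, removal of length and GC trends (loess, span 0.5) and leaving out each library.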

Additional observations from a re-analysis of the deposited data

How the results depend on the processing

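As reported, 10 replication genes passed, as did 676 genes in all and 24 genes of the further lists. Among members, 6 fell with quantile normalization and 5 in the untrended fit. Under the replicate block 2 members fell, 253 genes were called in all and 12 in the further lists. With length and GC trends removed, 1750 of the 10536 genes tested were called in all and 43 in the further lists. Leaving out 1 library at a time gave between 0 and 12 falling members, between 137 and 1276 genes in all and between 5 and 34 of the further lists. The cause of these differences was not tested. The members' median log2 fold change ran from -0.19 to -0.10 over the settings with all 6 libraries and from -0.23 to -0.11 over the fits without a library. No member rose in any setting, and no called member changed direction. The labels state no pairing, and the correlations between same-numbered libraries cannot exclude paired cultures. What lies behind the lower counts under the block was not tested. Without counts, the depth behind weakly expressed members such as Orc4, at 3.38 FPKM with DMSO, is unknown.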
